A study of Mus musculus with 223 samples.

Results

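Neuronal RNA-binding splicing regulators were followed in single interneurons (INs) of the developing mouse cortex. They were 10 listed genes of 43629 in the count table, matched from Ensembl identifiers to mouse symbols: Rbfox1, Rbfox2 and Rbfox3, the neuronal Elavl genes Elavl2, Elavl3 and Elavl4, Nova1 and Nova2, Celf4, and Ptbp2. Every listed gene was found, and each reached 10 RPM, read counts scaled to the mapped reads of a cell, in over 5% of all cells. INs were sorted for GFP from the cortex of mice of both sexes, kept on a C57BL/6 background, that carry GFP under the regulatory sequences of Htr3a, a serotonin receptor gene that marks INs coming mainly from the caudal ganglionic eminence. No group had a mutation or drug treatment, and all cells share the same transgene. There were 82 cells at embryonic day 18 (E18), which carry no type, and the authors had placed the postnatal cells in types 1, 2 and 3, which at postnatal day 2 (P2) hold 22, 31 and 13 cells and at P5 hold 34, 19 and 22 cells. Type 1 is the Meis2-enriched type of the white matter, and types 2 and 3 are those of the grey matter. Brains of an age were pooled, so each group is 1 sample, the cells are not replicates, and all differences are given without a test. Since E18 cells carry no type, a difference of a P5 type from E18 cannot separate age from type. Pronase was the dissociating enzyme at each age, but P5 cortices were handled in artificial cerebrospinal fluid, cooler and for longer than those of E18 and P2, so every difference of P5 from E18 or P2 cannot be told apart from this handling.

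Neurons splice many transcripts differently from other cells, and they do so with families of RNA-binding proteins that bind short motifs in and beside alternative exons. Rbfox proteins bind GCAUG, Nova proteins bind clusters of CA flanked by pyrimidines, Elavl and Celf proteins bind U-rich and GU-rich stretches, and Ptbp proteins bind pyrimidine-rich stretches and mostly repress exons. In differentiating neurons Ptbp1, the form of dividing progenitors, is switched off and Ptbp2 takes its place for a time, while Rbfox3, known to histologists as the antigen NeuN, comes on as neurons mature.

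Members of a family resemble each other closely in their coding sequence, so the first matter was whether a read pair can be given to the right paralogue. The longest stretch shared letter for letter between Rbfox1 and Rbfox2 coding sequences was 29 bases, and so was that between Elavl3 and Elavl4. Both lie in parts that code for an RNA recognition motif, the RNA-binding fold of these proteins. They are shown in capitals with their neighbouring bases, from GENCODE M21 transcripts on GRCm38, in coding exons. The Rbfox stretches run over an exon junction, so their genomic intervals span an intron. The Rbfox1 sequence lies at chr16:7292231-7294091 on the plus strand, Rbfox2 at chr15:77102918-77105623 on the minus strand, Elavl3 at chr9:22018580-22018648 on the minus strand and Elavl4 at chr4:110206409-110206477 on the minus strand.
Rbfox1: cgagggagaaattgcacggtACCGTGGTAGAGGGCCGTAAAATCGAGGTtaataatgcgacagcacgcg
Rbfox2: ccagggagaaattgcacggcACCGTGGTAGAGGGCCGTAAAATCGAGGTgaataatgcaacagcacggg
Elavl3: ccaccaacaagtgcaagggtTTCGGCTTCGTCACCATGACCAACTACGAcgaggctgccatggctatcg
Elavl4: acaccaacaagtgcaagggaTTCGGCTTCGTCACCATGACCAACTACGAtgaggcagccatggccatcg
The other pairs within a family shared between 14 and 23 bases. No stretch of 50 bases, the length of a read, was shared between any members over all annotated transcripts, so their levels can be set apart. Nova2 was the member with most sequence in another gene: 30.8% of its 50-base stretches also belong to Gm26821, a long non-coding RNA on the opposite strand that overlaps 2652 of its exonic bases. The sources used here do not state whether counting used strand, so the Nova2 level is uncertain there. For Elavl3, Nova1 and Celf4 the share was 3.13%, 3.00% and 0.203%, and for the other members it was 0.

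A count was turned into RPM with the scaling coefficient deposited for its cell. The level of a group is its pooled RPM, the summed count over the summed mapped read pairs, and a cell is counted as having a gene above 10 RPM, the level used in the study's methods. Mapped read pairs per cell ran from 3707601 to 15840130, and total counts on genes from 1596087 to 11692823. Type 3 INs at P5 stood apart, with a median of 32.1% of mapped pairs on genes against 55.2% and 55.5% in types 1 and 2, and type 3 INs at P2 had the fewest genes above 10 RPM, a median of 1437 against 1834 to 2738 in the other groups. Shares of cells carry exact (Clopper-Pearson) 95% binomial intervals, and pooled levels exact Poisson ones, and both cover counting error only. Since the pooled levels rest on many read pairs, their Poisson intervals are narrow beside the spread over cells, as for Elavl2 at E18 (254.0 to 256.2 RPM) and in P5 type 1 (37.2 to 38.5 RPM).

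At least 1 of 6 pan-neuronal markers was above 10 RPM in every cell, and at least 1 of 6 IN markers in 92.3% to 100% of each group. At least 3 of 6 markers of excitatory neurons were above 10 RPM in 12 of 82 E18 cells and in no postnatal cell. At least 3 of 8 markers of astrocytes or radial glia were above 10 RPM in 3 of 19 P5 type 2 cells and in 1 of the 12 E18 cells, and 1 further P5 type 2 cell had at least 3 of 7 oligodendrocyte lineage markers. No cell had 3 markers of microglia, endothelial cells or erythrocytes. Levels and folds without these cells are given together after the members. Below that number of markers, type 1 INs at P5 stood apart. The summed level of the 8 astrocyte or radial glia markers had a median of 117.6 RPM there (2.58 to 1708) against 5.46 RPM at E18 (0.951 to 1311) and 15.1 and 10.4 RPM in P5 types 2 and 3, with at least 1 of them above 10 RPM in 67.6% of cells against 19.5%, 57.9% and 31.8%. Pax6 and Slc1a3 were the most frequent, in 14 and 9 of 34 cells, while Gfap, Aldoc and Aldh1l1 were at or near 0. At least 1 of 6 cell cycle markers was above 10 RPM in 64.7% of P5 type 1 cells against 45.1% at E18 and 26.3% and 13.6% in P5 types 2 and 3, with summed levels of 0 to 520 RPM against 0 to 1931 RPM at E18. The part of these markers in the P5 type 1 results was not tested. The summed level of the pan-neuronal markers had a median of 1541 RPM in P5 type 3 (572 to 4585) against 4797 RPM at E18 (903 to 12890) and 4011 and 4356 RPM in P5 types 1 and 2, and its part in the P5 type 3 results was not tested.

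The neuronal Elavl family, whose proteins stabilise transcripts and steer their splicing and translation, differed in make-up between IN types. Elavl2 and Elavl4 were low in type 1 INs at P5, and the pooled level of Elavl3 there was close to that at E18, as an average over library sets that differed in direction. Between 81.8% and 100% of a group's cells had at least 1 of the 3 genes above 10 RPM, and 93.3% of all cells did.

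Elavl2 (chr4:91250763-91400785, minus strand) was highest at E18, with a pooled level of 255 RPM. Single E18 cells ran from 0 to 1286 RPM with a median of 119.1 RPM, and 69.5% of them (58.4% to 79.2%) were above 10 RPM. In type 1 INs at P5 the pooled level was 37.9 RPM, cells ran from 0 to 358 RPM with a median of 0.427 RPM, and 35.3% (19.7% to 53.5%) were above 10 RPM. Most P5 type 1 cells were thus below the level at which an E18 cell lay in the middle of its group, although both groups hold cells at 0 and their ranges overlap. Type 2 INs at P5 had 139.1 RPM with a median cell of 11.3 RPM (0 to 1188) and 57.9% of cells above 10 RPM. Type 3 INs at P5 had 118.3 RPM with a median cell of 46.1 RPM (0 to 569), and 86.4% (65.1% to 97.1%) of them were above 10 RPM. At P2, types 1, 2 and 3 had 60.2, 134.1 and 155.5 RPM, with median cells of 5.82, 19.2 and 0.539 RPM and highest cells of 628, 1021 and 902 RPM. The P2 type 3 level came from 4 of 13 cells. A single cell gave 47.3%, 47.3% and 49.2% of the read pairs in P2 types 1 and 3 and P5 type 2, and without it the levels were 33.2, 89.3 and 74.9 RPM. On the log2(pooled RPM + 1) scale, used for all log2 folds here, the difference was -2.72 for P5 type 1 over E18 and -1.74 for P5 type 1 over the other P5 types, and over the alternative settings tried it stayed between -3.62 and -1.35 and between -2.83 and -1.05.

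Elavl4 (chr4:110203722-110351909, minus strand), also called HuD, was like Elavl2 low in type 1 INs at P5. At E18 its pooled level was 227 RPM, cells ran from 0 to 1540 RPM with a median of 119.4 RPM, and 73.2% (62.2% to 82.4%) were above 10 RPM. In type 1 INs at P5 the level was 53.97 RPM, cells ran from 0 to 387 RPM with a median of 0.469 RPM, and 29.4% (15.1% to 47.5%) were above 10 RPM. These were the lowest level and the lowest share of the 7 groups. Types 2 and 3 at P5 had 180.4 and 187.1 RPM, with median cells of 94.7 RPM (0 to 810) and 20.3 RPM (0 to 889), and 57.9% and 54.5% of cells above 10 RPM. At P2 the levels were 190.3, 253 and 407 RPM in types 1, 2 and 3, with median cells of 9.64, 111.2 and 19.4 RPM. The P2 type 3 value was 228 RPM without its highest cell of 2242 RPM. The log2 fold was -2.05 for P5 type 1 over E18, -1.75 over the other P5 types and -1.80 over P2 type 1.

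Elavl3 (chr9:22015005-22052023, minus strand), or HuC, was the member of the family found in most cells and was never at 0. Its pooled level was 313 RPM at E18, with cells from 0.124 to 1934 RPM and a median of 177.9 RPM. In type 1 INs at P5 it was 318 RPM, with cells from 2.67 to 2375 RPM and a median of 132.04 RPM. In type 2 INs at P5 it was 289 RPM with a median cell of 141.02 RPM, and in type 3 INs 97.1 RPM with a median cell of 59.1 RPM (0.922 to 934). The shares of cells above 10 RPM lay close together, 87.8% at E18 and 82.4%, 84.2% and 81.8% in types 1, 2 and 3 at P5, while the level in type 3 was the lowest of them. The log2 fold for P5 type 3 over E18 was -1.68, and it was -0.89 when counts were scaled to the total on genes in place of all mapped pairs. At P2 the levels were 159.1, 256 and 285 RPM in types 1, 2 and 3. Of the P2 type 3 read pairs 75.9% came from 1 cell, without which the level was 74.3 RPM.

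The 3 genes were also read within the library sets, the first number of each cell's label, whose meaning is not stated. In sets B, C and D, type 1 INs at P5 had 30.6, 16.5 and 64.3 RPM of Elavl2, with 11, 11 and 12 cells, and E18 cells of the same sets had 308, 214.8 and 165.2 RPM, with 48, 9 and 25 cells. For Elavl4 they had 50.6, 38.9 and 71.1 RPM against 198.1, 279 and 266 RPM at E18. For Elavl3 they had 544, 189.7 and 230 RPM against 320, 416 and 264 RPM. Both Elavl2 and Elavl4 were therefore lower in P5 type 1 INs than in the untyped E18 cells within every set. Elavl3 was higher in set B and lower in sets C and D. Its pooled level near that of E18 was thus not seen in every set. Type 3 INs at P5, with 2, 3 and 17 cells, had 159.4, 225 and 97.9999 RPM of Elavl2, above type 1 in each set. Type 2 INs at P5, with 2, 3 and 14 cells, had 7.25, 57.4 and 183.4 RPM, below type 1 in set B and above it in sets C and D. Their Elavl4 was at 48.5, 408 and 149.1 RPM, also below type 1 in set B. Elavl4 in type 3 was at 0 in the 2 cells of set B and at 165.7 and 209.9 RPM in sets C and D. Elavl3 in type 3 was at 111.5, 257 and 71.5 RPM in sets B, C and D. It lay above type 2 in set B (47.6 RPM) and above type 1 in set C, so type 3 was not lowest in every set.

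The share of cells above 10 RPM gives less weight to single cells than the pooled level does. For P5 type 1 INs against E18, the intervals of the shares did not overlap for Elavl2 and Elavl4, both lower, and for Celf4, higher. All genes that passed 10 RPM in over 5% of cells, 9358 in number, were compared, and of these 2.18% lay apart in the lower direction and 1.00% in the higher one. For P5 type 1 against the other P5 types they did not overlap for Elavl2 (73.2% in the others, with 1.54% of genes apart in that direction), and for P5 type 3 against the others for Elavl2 again (86.4% against 43.4%, with 1.34% of genes apart). The same held for Elavl2 in P5 type 3 against P2 type 3 (86.4% against 30.8%, with 0.748% of genes apart), where the set cannot be told apart from age. Its pooled level went the other way, at 118.3 RPM against 155.5 RPM, and P2 type 3 cells had the fewest genes above 10 RPM. For the remaining members and comparisons the intervals overlapped.

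**Figure D1:**
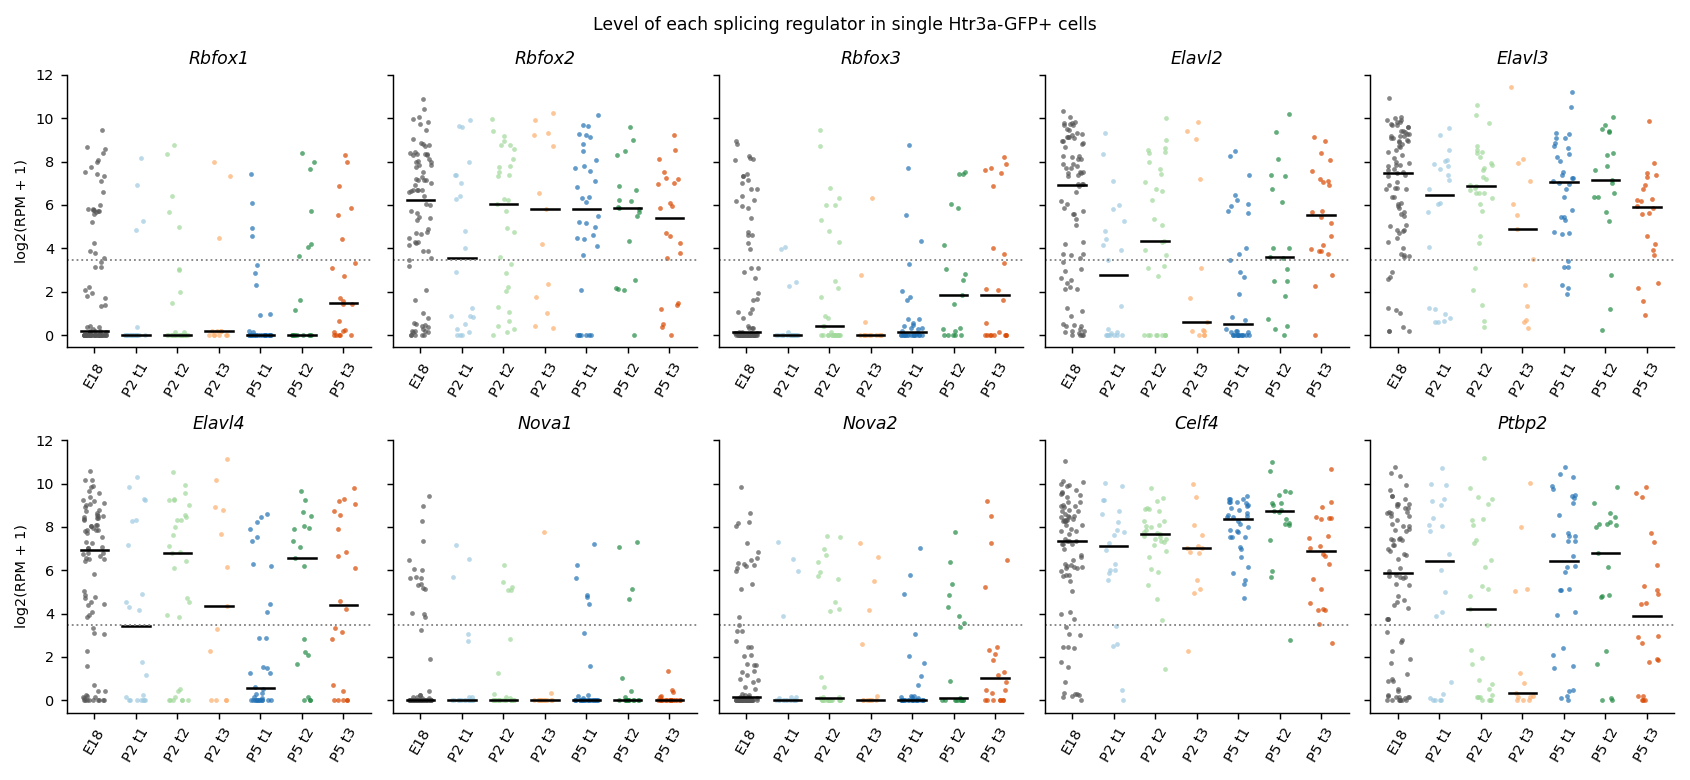
Each point is 1 cell, placed by its group on the horizontal axis (E18, then types t1 to t3 at P2 and P5) and by log2(RPM + 1) of the gene on the vertical axis. Black bars mark the median cell and the dotted line 10 RPM. The medians of Elavl2 and Elavl4 in P5 type 1 lie near 0, at 0.427 and 0.469 RPM, whereas that of Elavl3 lies at 132.04 RPM.

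Per kilobase of merged exon, a scale on which genes can be compared, the make-up of the family turned over between groups. Elavl2, Elavl3 and Elavl4 made up 25.97%, 38.4% and 35.6% of the summed RPM per kilobase at E18. In type 1 INs at P5 Elavl3 made up 75.997%, with 7.50% for Elavl2 and 16.5% for Elavl4. In type 3 INs at P5 Elavl4 led with 55.1% against 22.4% for Elavl3, and type 2 INs were nearer to E18 with 18.1%, 45.5% and 36.3%. At P2 Elavl4 led in every type, with 53.8%, 46.9% and 55.7% in types 1, 2 and 3. With the length of the longest coding transcript in place of merged exons, Elavl3 made up 74.2% in P5 type 1 and Elavl4 48.7% in P5 type 3, and the same gene led in each of the 7 groups.

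Single cells mostly held several of these genes at once. All 3 were above 10 RPM in 44 of 82 E18 cells, in 7 of 22, 13 of 31 and none of 13 cells of types 1, 2 and 3 at P2, and in 4 of 34, 6 of 19 and 7 of 22 at P5. A count of 0 of 13 cells allows a share of up to 23.1%. The most common state among type 1 INs at P5 was Elavl3 alone, in 12 of 34 cells, against 8 of 82 cells at E18, 3 of 19 in type 2 and 1 of 22 in type 3.

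**Figure D2:**
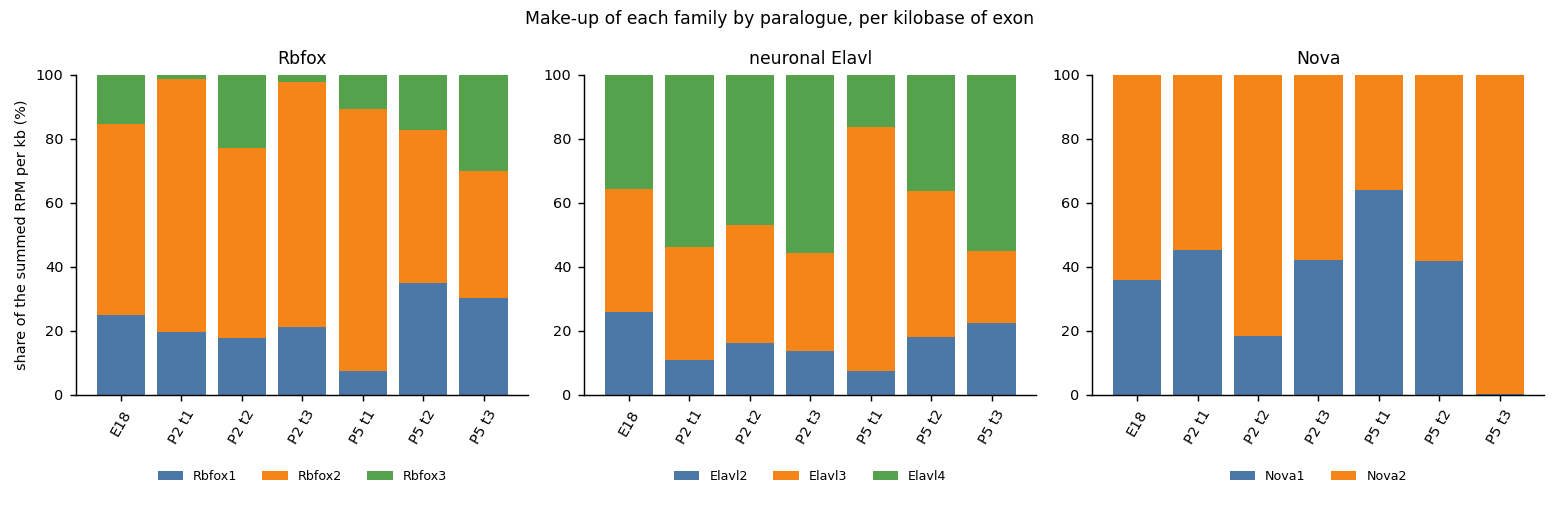
Stacked bars give the share of each paralogue in the summed pooled RPM per kilobase of merged exon of its family, in percent, for the 7 groups. Elavl3 fills 75.997% of the neuronal Elavl bar in P5 type 1, Rbfox2 fills 39.5% to 81.7% of the Rbfox bars, and Nova1 nearly vanishes from the Nova bar in P5 type 3.

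Among the Rbfox genes, which switch exons of channels, synaptic and cytoskeletal proteins, Rbfox2 was the paralogue found in most cells. At least 1 Rbfox gene was above 10 RPM in 79.4% of all cells, and Rbfox2 alone in 84 cells. Per kilobase Rbfox2 was the leading paralogue of the family in each group, from 39.5% in P5 type 3 to 81.7% in P5 type 1. With the longest coding transcript as length, Rbfox3 led in P5 type 3 with 38.2% against 31.9% for Rbfox2, and Rbfox2 led in the other groups.

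Rbfox2 (chr15:77078990-77307004, minus strand), a form also found outside the nervous system, had 208.3 RPM at E18, with cells from 0 to 1914 RPM and a median of 74.8 RPM. At P2 it had 157.6, 177.3 and 292 RPM in types 1, 2 and 3, and at P5 216.6, 140.06 and 94.1 RPM. The median cells at P5 were closer together, at 56.1, 57.1 and 40.6 RPM, and 76.5%, 73.7% and 72.7% of cells were above 10 RPM. The log2 fold for P5 type 3 over E18 was -1.14, and -0.35 with the total on genes as library size.

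Rbfox1 (chr16:5885355-7411526, plus strand) spans 1526172 bases and was found in fewer cells. At E18 it had 47.1 RPM, with cells from 0 to 694 RPM and a median of 0.153 RPM, and 26 of 82 cells were above 10 RPM. At P5 it had 10.6 RPM in type 1, 55.7 RPM in type 2 and 39.1 RPM in type 3, with 4 of 34, 7 of 19 and 6 of 22 cells above 10 RPM. In type 1, 54.8% of its read pairs came from 1 cell of 171.6 RPM, and without that cell the level was 4.95 RPM. At P2 it had 21.3, 28.4 and 43.5 RPM, with 4 of 22, 5 of 31 and 3 of 13 cells above 10 RPM. Each of these postnatal levels leaned on 1 cell, and without the highest cell they were 8.31, 16.7 and 20.8 RPM in types 1, 2 and 3 at P2 and, at P5, 29.0 RPM in type 2 and 22.5 RPM in type 3. The log2 fold was -2.06 for P5 type 1 over E18 and -2.07 over the other P5 types. In set C the order against E18 was reversed, with 26.2 RPM in 11 type 1 cells and 9.94 RPM in 9 E18 cells.

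Rbfox3 (chr11:118489762-118911597, minus strand), NeuN, was rare at P2 in types 1 and 3. There it had 1.78 and 6.02 RPM, with 2 of 22 and 1 of 13 cells above 10 RPM and highest cells of 15.7 and 79.5 RPM. P2 type 2 INs had 48.6 RPM, with 9 of 31 cells above 10 RPM and a highest cell of 697 RPM, which gave 46.1% of the read pairs and without which the level was 27.1 RPM. Type 2 was the P2 type with the antigen's transcript in most cells, although the intervals of its share (14.2% to 48.04%) and of types 1 and 3 (1.12% to 29.2% and 0.195% to 36.03%) overlap. At E18 it had 38.9 RPM with 24 of 82 cells above 10 RPM, and at P5 20.6, 36.4 and 51.3 RPM, with 4 of 34, 6 of 19 and 8 of 22 cells. In P5 type 1, 49.4% of read pairs came from 1 cell and the level without it was 10.7 RPM. In P2 types 1 and 3 the levels without the highest cell were 1.10 and 0.529 RPM. The log2 folds were -3.87, 3.66 and -2.09 for P2 types 1, 2 and 3 over the other P2 types, and 2.96 and 2.90 for P5 over P2 in types 1 and 3.

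The paralogues shared cells to different degrees. Rbfox2 was above 10 RPM in 42 of the 55 cells that had Rbfox1 and in 44 of the 54 that had Rbfox3. Rbfox1 and Rbfox3 were found together in 16 cells, and all 3 in 14 cells, of which 8 were at E18.

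Nova1 and Nova2, KH-domain proteins first known as autoantigens of a movement disorder, were the rarest members. Either was above 10 RPM in 83 cells, or 37.2% of all, and both in 6 cells, of which 4 were at E18. Nova1 (chr12:46694517-46818929, minus strand) had 22.9 RPM at E18 with 17 of 82 cells above 10 RPM and a median cell at 0. A single E18 cell of 682 RPM gave 31.02% of its read pairs. At P5 it had 11.7 RPM in type 1 and 16.9 RPM in type 2, with 6 of 34 and 4 of 19 cells above 10 RPM. In type 3 INs at P5 it had 0.121 RPM, 21 read pairs in all, with a highest cell of 1.59 RPM and 0 of 22 cells above 10 RPM. The usual limit of 3 cells for a count of 0 puts the share at up to 13.6%, and the exact two-sided interval, which is a little wider, runs from 0% to 15.4% and overlaps that at E18 (12.6% to 31.1%), while the log2 fold of the pooled level was -4.41. In P5 type 2, 2 of the 4 cells above 10 RPM were among the cells with glial markers set apart above, and the level was 3.58 RPM without those 4 cells and 66.8 RPM in them. At P2 it had 12.6, 7.18 and 19.96 RPM, and in type 3 a single cell of 217.2 RPM gave 99.9% of the read pairs, without which the level was 0.0132 RPM. In P2 type 1 and P5 types 1 and 2 the levels without the highest cell were 7.17, 6.21 and 10.6 RPM.

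Nova2 (chr7:18925888-18965319, plus strand) had 39.2 RPM at E18, with 19 of 82 cells above 10 RPM and a highest cell of 921 RPM that gave 32.9% of its read pairs. At P5 it had 6.32 RPM in type 1, 22.5 RPM in type 2 and 51.4 RPM in type 3, with 3 of 34, 7 of 19 and 5 of 22 cells above 10 RPM. The type 3 level rested on few cells, the highest at 575 RPM. At P2 it had 14.6, 30.6 and 26.4 RPM, with 4 of 22, 11 of 31 and 4 of 13 cells above 10 RPM. The log2 fold was -2.46 for P5 type 1 over E18, -2.36 for P5 type 1 over the other P5 types and 2.02 for P5 type 3 over the others. Without the highest cell the levels were 7.84 and 13.9 RPM in P2 types 1 and 3, and 3.85, 12.7 and 33.5 RPM in types 1, 2 and 3 at P5. By set, P5 type 1 INs had 11.3, 7.79 and 0.395 RPM in B, C and D and E18 cells 49.5, 6.15 and 29.97 RPM, so set C did not show the lower level.

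Celf4, which binds transcripts of synaptic proteins and whose loss in mice gives seizures, was the member found in most cells. It was above 10 RPM in 88.8% of all cells, and at P5 in 34 of 34, 18 of 19 and 21 of 22 INs of types 1, 2 and 3, against 66 of 82 cells at E18 (80.5%, 70.3% to 88.4%). The interval for P5 type 1 was 89.7% to 100%. Its pooled level was 287 RPM at E18, with cells from 0 to 2068 RPM and a median of 164.3 RPM. At P2 it was 243, 247 and 224 RPM, with median cells of 137.02, 201.7 and 127.6 RPM. At P5 it was 323, 540 and 234 RPM, with median cells of 326, 429 and 118.007 RPM and lowest cells of 25.6, 5.97 and 5.34 RPM. Type 1 cells at P5 were the most alike, with an SD over cells of 1.26 on the log2(RPM + 1) scale against 2.97 at E18. The highest P5 type 2 cell, of 2004 RPM, gave 24.7% of the read pairs, and without it the level was 435 RPM. Without the 4 type 2 cells with markers of another cell type it was 656 RPM, with 15 of 15 cells above 10 RPM. The log2 fold for P5 type 2 over P2 type 2 was 1.13.

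Ptbp2 (chr3:119718742-119784466, minus strand), which holds back exons of mature neurons until its own level falls, had 221.9 RPM at E18. Cells there ran from 0 to 1727 RPM with a median of 58.03 RPM, and 56 of 82 were above 10 RPM. At P2 it had 293, 213.4 and 109.3 RPM in types 1, 2 and 3, with median cells of 85.1, 17.8 and 0.270 RPM and 15 of 22, 17 of 31 and 4 of 13 cells above 10 RPM. The P2 type 3 level was 25.7 RPM without its highest cell of 1052 RPM. At P5 it had 332, 188.7 and 143.4 RPM, with median cells of 85.6, 111.06 and 13.7 RPM and 25 of 34, 14 of 19 and 11 of 22 cells above 10 RPM. Type 1 had the highest level of the 3 types at both postnatal ages, yet at P5 its median cell lay below that of type 2. Its log2 fold over the other P5 types was 0.99 and that over E18 was 0.58. Ptbp1, the progenitor form, had 23.2 RPM at E18 with 9 of 82 cells above 10 RPM, and between 0.0120 and 26.05 RPM in the postnatal groups with at most 21.1% of cells above 10 RPM. Of its read pairs in P5 type 1 INs 83.4% came from 1 cell. Ptbp2 was above Ptbp1 in the share of cells in each of the 7 groups.

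**Figure D3:**
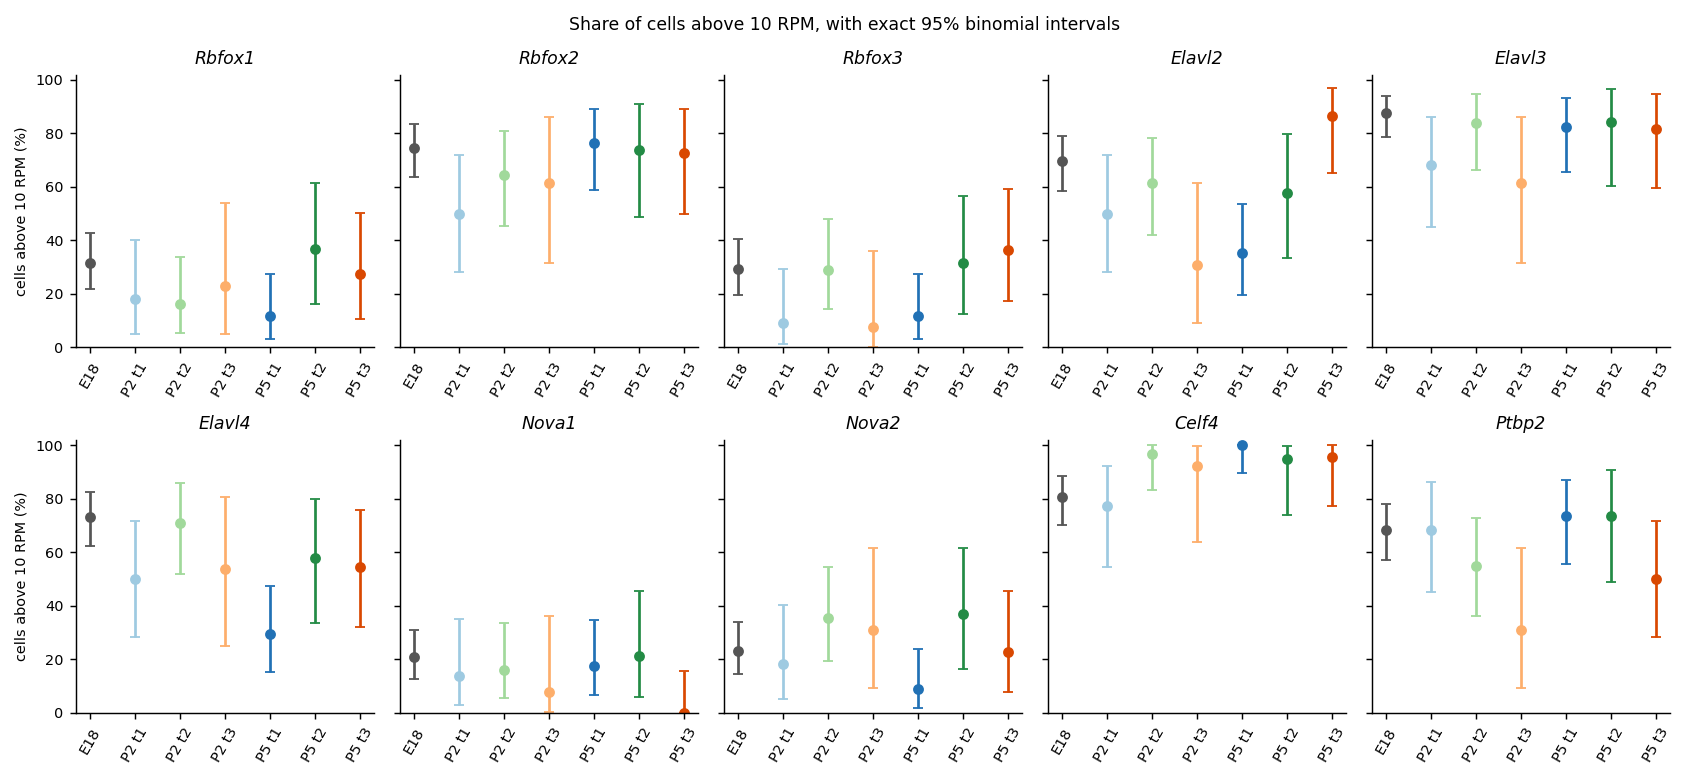
Points give the share of cells above 10 RPM in percent for each gene and group, and bars the exact 95% binomial interval, which covers counting error only. Celf4 reaches 100% in P5 type 1, where Elavl2 and Elavl4 are at 35.3% and 29.4%, and Nova1 is at 0% in P5 type 3.

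Counted per cell, E18 cells and type 2 INs held most of these regulators. The median number of the 10 genes above 10 RPM was 6 at E18 (0 to 9), 4, 5 and 4 in types 1, 2 and 3 at P2 and 5, 6 and 5 at P5. At least 5 were found in 74.4% (63.6% to 83.4%) of E18 cells, in 40.9%, 67.7% and 30.8% of types 1, 2 and 3 at P2, and in 55.9%, 73.7% and 63.6% at P5. Only 1 cell, at E18, had none and no cell had all 10, which allows a share of up to 1.35% of all cells. The number of genes of any kind above 10 RPM differed as well. Its median was 2496 at E18, 1834, 2482 and 1437 in types 1, 2 and 3 at P2, and 2258, 2738 and 2102 at P5, so that the order of the groups was similar, except that P5 type 3 had fewer genes than P5 type 1 but more regulators (a mean of 5.27 against 4.47). Its part in the number of regulators was not tested. With every cell thinned to 1500000 read pairs on genes, the mean number per cell was 5.57 at E18 against 5.59 with all read pairs. In P5 type 1 it was 4.44 against 4.47. Thinned counts were scaled back up before the 10 RPM cut, so this step could hardly move the mean. It does not show what depth or the number of genes found in a cell contributes. Without the cells holding 3 or more markers of another cell type, the mean was 5.33 at E18 and 6.4 in P5 type 2, against 5.68 with them.

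Cells set apart by their markers carried some of these genes differently. Of the 4 P5 type 2 cells with glial markers, none had Rbfox1, Rbfox3, Elavl2 or Nova2 above 10 RPM, 2 had Elavl3 and 1 had Elavl4. The other 15 type 2 cells had Elavl2 above 10 RPM in 11, Elavl3 in 14 and Elavl4 in 10. Without the 4 cells the P5 type 2 levels were 175.6, 353 and 208.9 RPM for Elavl2, Elavl3 and Elavl4, 70.5, 139.7 and 46.1 RPM for Rbfox1, Rbfox2 and Rbfox3, 28.5 RPM for Nova2 and 192.6 RPM for Ptbp2. Rbfox2, Elavl4 and Ptbp2 pooled at similar levels in the 12 E18 cells with excitatory markers and in the other 70. They were at 205.4, 227.2 and 219.5 RPM against 208.9, 226.9 and 222.4 RPM. In the 12 cells Elavl2 was above 10 RPM in 10 and pooled at 156.6 RPM, against 47 of the other 70 and 273 RPM. Rbfox1 was above 10 RPM in 8 of the 12 cells and pooled at 95.6 RPM, against 18 of 70 and 38.5 RPM. Without these cells the log2 fold of P5 type 1 over E18 was -1.77 for Rbfox1, -2.82 for Elavl2, -2.05 for Elavl4 and -2.49 for Nova2, and Nova1, at -1.08, also passed 1. For P5 type 2 over E18 it was 1.15 for Celf4 and -2.55 for Nova1, and the other members stayed within 1.

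The members past a set fold were counted beside all genes compared. Past the fold means an absolute log2 fold of at least 1. For P5 type 1 over E18, 4 of the 10 members were past it, all lower (Rbfox1, Elavl2, Elavl4 and Nova2), where 26.9% of the 9358 genes were lower. For P5 type 2 over E18 no member was past it, with 15.7% of genes higher and 26.6% lower, while Celf4 passed it upward and Nova1 downward without the cells with markers of another cell type. For P5 type 3 over E18, 4 members were lower (Rbfox2, Elavl2, Elavl3 and Nova1), where 49.6% of genes were. Per total on genes Nova1 alone was lower and Rbfox3 and Nova2 were higher, at 1.19 and 1.18, and with TMM factors Elavl3 and Nova1 were lower. In type 3 the choice of library size matters: the median log2 fold of all genes was -0.98 per mapped pair, -0.25 per total on genes and -0.44 with edgeR TMM factors, while that of the members was -0.46 per mapped pair. Relative to the median of all genes, Rbfox2 and Elavl2, at -1.14 and -1.10, were close to it, Elavl3 was lower and Nova1 much lower.

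Between the types at P5, 5 members were lower in type 1 than in the others (Rbfox1, Rbfox3, Elavl2, Elavl4 and Nova2), against 23.1% of genes. Rbfox3, at -1.05, was not past the fold with edgeR RLE factors or with a pseudocount of 10 RPM. It turned to 0.36 in set D alone, and Elavl4 turned to 0.73 in set B alone. In type 2, 3 were higher (Rbfox1 at 1.43, Elavl2 at 1.09 and Nova1 at 1.02), against 23.9% of genes. Without the highest cell of each group Rbfox1 was at 0.96 and Elavl2 at 0.38, and without the cells with markers of another cell type Nova1 was at -0.94, Elavl4 at 1.08 and Celf4 at 1.16. In type 3, 1 was higher (Nova2), against 13.4% of genes, and 3 were lower (Rbfox2, Elavl3 and Nova1, at -1.01, -1.65 and -3.69), against 46.9% of genes. This balance turned with the library size: per total on genes 5 were higher (Rbfox1, Rbfox3, Elavl2, Elavl4 and Nova2, at 1.31, 1.70, 1.44, 1.68 and 2.80) and Nova1 alone was lower, beside 26.4% and 35.2% of genes, and with TMM factors the same 5 were higher and Elavl3 and Nova1 lower. The median log2 fold of the members was -0.66 in type 1, where that of all genes was 0.07, and 0.56 in type 2, where it was 0.05. In type 3 it was -0.10 against -0.85. The authors drew the types from these same counts, so a difference between types is a description of their grouping.

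**Figure D4:**
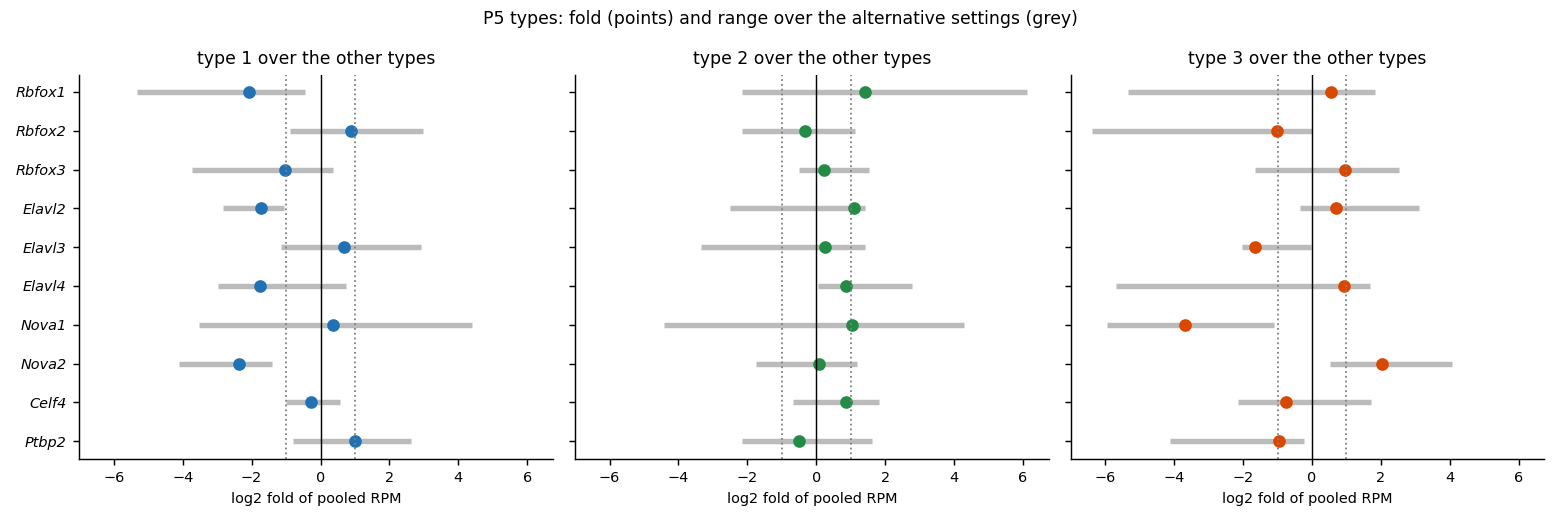
Points give the difference of each P5 type from the other P5 types on the log2(pooled RPM + 1) scale, and grey bars its range over the alternative settings. Dotted lines mark a log2 fold of 1 in either direction. In type 1 the bars of Elavl2 and Nova2 lie wholly below -1, from -2.83 to -1.05 and from -4.09 to -1.41, and most of the remaining bars of that type cross 0.

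At P2, 2 members were lower in type 1 (Rbfox3 and Elavl2, at -1.19), against 33.7% of genes, and none was higher, against 19.6%. With TMM factors Rbfox3 alone was lower in type 1, against 31.2%, with Elavl2 at -0.97. Without the highest cell of each group 4 were lower there (Rbfox1, Rbfox3, Elavl2 and Nova2), against 40.8%. In type 2, 1 was higher (Rbfox3), against 29.6%, and in type 3 1 was higher (Nova1 at 1.00, from a single cell), against 15.4%, and 2 were lower (Rbfox3 and Ptbp2, at -1.17), against 54.8%. With TMM factors 6 were higher in type 3 (Rbfox1, Rbfox2, Elavl2, Elavl3, Elavl4 and Nova1, from 1.11 to 1.72), against 24.5% of genes, and Rbfox3 alone was lower, with Ptbp2 at -0.47. Without the highest cell of each group no member was higher in type 3 and 4 were lower (Rbfox3, Elavl3, Nova1 and Ptbp2, at -3.50, -1.31, -3.01 and -2.97). From P2 to P5, Rbfox3 was higher in type 1, against 32.8% of genes, and Elavl4 and Nova2 (-1.09) were lower, against 20%. Without the highest cell of each group Nova2 in type 1 was at -0.87. In type 2 Nova1 and Celf4 were higher, both at 1.13, against 25% of genes, and without the highest cell of each group both were at 0.94. In type 3 Rbfox3 was higher, against 41.5%, and Rbfox2 (-1.62), Elavl3 (-1.54), Elavl4 (-1.12) and Nova1 (-4.22) were lower, against 24.1%. Without the highest cell of each group Rbfox2 alone was lower in type 3, against 10.0% of genes. Rbfox3, Nova2 and Ptbp2 were then higher (4.70, 1.21 and 2.12), against 44.2%. As a difference of mean log2(RPM + 1), Rbfox3, Elavl2 and Ptbp2 were higher (2.13, 2.35 and 1.64), against 23.4%, and none was lower. All P2 cells belong to library set A and no E18 or P5 cell does, so these changes with age cannot be told apart from the set.

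Other splicing factors were read from 3 lists, beside 13.1%, 15.7% and 11.4% of all genes that were higher and 26.9%, 26.6% and 49.6% that were lower than at E18 in types 1, 2 and 3 at P5. Of 21 relatives of the members and further neuronal splicing factors, 20 were compared, and 1, 3 and 2 were higher and 6, 7 and 9 lower than at E18 in types 1, 2 and 3 at P5. Of 20 hnRNP genes, general repressors of exons, none was higher, and 1, 3 and 12 were lower. Of 13 SR protein genes, general activators, 12 were compared, with 0, 1 and 0 higher and 2, 1 and 5 lower. Median log2 folds over E18 in types 1, 2 and 3 were -0.20, -0.33 and -0.78 for the relatives, -0.18, -0.26 and -1.14 for the hnRNP genes and 0.10, -0.46 and -0.72 for the SR genes, beside -0.23, -0.19 and -0.98 for all genes, of which the type 3 value was -0.25 per total on genes. Khdrbs2, Raver1 and Hnrnpul2 were lower than at E18 in all 3 types, as were 7.70% of all genes. Khdrbs2, which splices neurexin transcripts, had 49.1 RPM at E18 and 7.77, 15.1 and 13.2 RPM in types 1, 2 and 3, and its share of cells above 10 RPM was 29.3% against 11.8%, 15.8% and 31.8%. Raver1, a partner of Ptbp proteins, had 10.8 RPM against 4.08, 0.0759 and 1.53 RPM, and Hnrnpul2 40.6 RPM against 6.23, 10.3 and 17.4 RPM.

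Over the 7 groups, Elavl2 and Rbfox1 moved most alike among the members, with a Pearson r of 0.90 of log2(pooled RPM + 1), and Elavl3 and Nova1 had 0.85. Elavl4 and Ptbp2 had -0.74. For the 6 members above 10 RPM in at least 25% of all cells, the nearest genes of the 9358 were BC051077 and Mex3a to Rbfox2 (0.994 and 0.989), Cntrl and 4933436I20Rik to Elavl2 (0.958 and 0.951), Sf3b6 and Med1 to Elavl3 (0.996 and 0.986), Cxadr and Dact1 to Elavl4 (0.971 and 0.962), Med18 and Slc23a1 to Celf4 (0.983 and 0.973) and Grik3 and Gm37949 to Ptbp2 (0.984 and 0.982). These values rest on 7 points, which share depth and library sets, and are a description only.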

How the data were processed

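Single cells were captured on Fluidigm C1 chips after sorting, amplified with SMARTer and sequenced as pairs of 50-base reads, without molecular identifiers. Alignment to GRCm38 was by TopHat2 and counting per Ensembl gene by HTSeq 0.6.1, and the authors deposited unnormalized counts, a coefficient per cell and the type of each postnatal cell, assigned from these counts. They checked capture sites for single cells, and doublets were not called here. Whether counting used strand is not given in the sources used here.

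Each deposited count was multiplied by its cell's coefficient to give RPM, and mapped pairs were taken from the inverse of that coefficient. Gene models and sequences came from GENCODE M21 (GRCm38). No column of cells was left unused. No test was made, since each age was 1 pool. Where no cell passed, the limit printed is 3 cells over the group's total. Named genes are the 10 members, Ptbp1, list genes past the fold over E18 in the same direction in all 3 P5 types, and the 2 genes nearest to each member found in at least 25% of cells. The members, lists and settings were chosen with earlier results of these data known. Alternatives changed threshold, depth, library size, pseudocount, scale, gene filter, gene length, single cells and library sets. The fold step was tested on simulated data for P5 type 1 over the other P5 types only, and the exact intervals on known values. Scaling factors alone were taken from edgeR 4.0.16 (R 4.3.3), and the remaining steps used scipy 1.17.1, matplotlib 3.10.9, pandas 2.3.3 and numpy 2.4.6 under Python 3.11.15.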

Additional observations from a re-analysis of the deposited data

Results flagged for a closer look

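Nova1 moved in opposite directions from P2 to P5 in types 2 and 3, with a log2 fold of 1.13 in type 2 and -4.22 in type 3, and the difference between the types was not tested. The P2 type 3 level rested on 1 cell of 217.2 RPM, without which, and without the highest cell at P5, the fold in type 3 was 0.0572. In type 2 the fold was -0.84 without the 4 P5 cells that held 3 or more markers of another cell type.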

How the results depend on the processing

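A changed pseudocount is added to both sides and cannot turn the direction of a fold. Its values among those counted next were fixed in advance. Of 36 member folds past 1, 334 values under alternative settings kept the direction in 319 and turned it in 15. In library set C alone (chosen after seeing the data) these were Rbfox1 (1.31) and Nova2 (0.30) in P5 type 1 over E18, Elavl2 (0.0638) in P5 type 3 over E18, Rbfox1 (-2.17) and Nova1 (-4.43) in P5 type 2 over the other types, and Rbfox2 (0.0031) in P5 type 3 over the others. In set B alone they were Elavl4 in P5 type 1 (0.73) and Elavl2 in P5 type 2 (-2.49) over the other types, and in set D alone Rbfox3 in P5 type 1 (0.36). As a difference of mean log2(RPM + 1) they were Nova1 in P2 type 3 over the others (-0.46) and Elavl3 in P5 type 3 over P2 type 3 (0.80). Without the highest cell of each group they were Nova1 in P2 type 3 over the others (-3.01) and in P5 type 3 over P2 type 3 (0.0572). Without cells holding 3 or more markers of another cell type (chosen after seeing the data) they were Nova1 in P5 type 2 over the others (-0.94) and over P2 type 2 (-0.84). The cause was not tested.

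The number of members higher at P5 than at E18, summed over the 3 types, was 0. It was 2 with totals on genes, 1 with TMM and 3 with RLE factors, 2 with mean logs, 4, 7 and 1 in sets B, C and D, and 1 without the cells with other markers. The number lower, 8, was 5 with totals on genes and 19 in set B. Between P2 types, 2 higher became 7 with TMM, 8 with RLE, 1 with a pseudocount of 10 RPM, 5 with mean logs and 1 without the highest cells, and 4 lower became 7 with mean logs and 8 without the highest cells. Between P5 types, 4 higher became 8 with TMM, 9 with RLE, 2 with a pseudocount of 10 RPM, 2 without the highest cells, 8 in set B and 11 in set C, and 8 lower became 15 in set B. From P2 to P5, 4 higher became 7 and 6 lower became 1 with mean logs, and 2 were lower without the highest cells. In sets B and C types 2 and 3 hold 2 or 3 cells each at P5.

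Counting a cell from 1 read pair raised the mean number of members per cell to 7.66 at E18, 6.09, 7.10 and 6.62 at P2 and 6.62, 7.74 and 7.86 at P5 in types 1, 2 and 3, and a threshold of 50 RPM lowered it to 3.55 in P5 type 3. No paired analysis was possible because the replicate numbers name single cells, each of 1 group, and pair none. Values within library sets stand in for it. Levels near that of 1 read pair cannot be told from 0 at this depth.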
